A study of Arabidopsis thaliana with 18 samples.

Results

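The genes described here are 82 protein-coding genes of Arabidopsis thaliana, out of 33602 gene models counted, whose transcripts stood at a similar level in fed and nitrogen-starved wild-type seedlings and then rose when nitrate was given. They were chosen on the 9 wild-type libraries alone. A level is the number of reads of a gene divided by the counted reads of its library and multiplied by 1000000 (CPM), and group means were taken over 3 libraries with 0.5 CPM added. A member had a highest mean of at least 5, a ratio of starved to untreated from 0.8 to the reciprocal of 0.8, and a ratio of nitrate to starved of at least 3. A total of 291 genes passed the level and nitrate steps, and starvation had lowered 97 of them below 0.8, raised 112 above the upper limit and left the 82 members in between. Since wild-type values chose the members, those values are given as a description. The libraries of the mutant played no part in the choice. Tests within the mutant are not wholly independent of the choice, because the spread per gene and the read filter used all 18 libraries. Same-numbered libraries of the genotypes also share a planting where dated. After nitrate, their deviations from the group mean correlated at 0.55, 0.51 and 0.24 for replicate numbers 1, 2 and 3. Tests between the genotypes use the wild-type libraries that chose the members and are not independent of the choice.

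RNA was sequenced from whole seedlings grown in liquid medium, as poly(A)-selected, stranded, single-end libraries. Wild type was the accession Col-4, and nlp2-2 (nlp2 below) is a single knock-out line with a T-DNA insertion in NLP2, the gene of a NIN-like protein. Each genotype was sampled untreated at a stated 10 days, after 3 days of nitrogen starvation at 13 days, and after 3 mM nitrate had then been applied for a time written as 30 with no unit. There are 3 libraries in each of the 6 groups, with 14684639 to 25545031 counted reads. Starved seedlings kept without nitrate up to the later time are not among the groups, so nitrate, handling and elapsed time cannot be told apart, nor can starvation and age. Planting and harvest dates, which 13 of the 18 labels give, put replicate numbers 1, 2 and 3 in plantings of months 2, 10 and 11 of 2018, each harvested after 12 days, untreated seedlings included, which differs from the stated ages.

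Nitrate is both a nutrient and a signal for plants. Within a short time of its arrival, transcription factors of the NIN-like protein family, which are held active in the nucleus by nitrate, bind target genes for nitrate uptake, its reduction to nitrite and ammonium, and the supply of reducing power that this reduction uses. Genes of the response differ in what nitrogen starvation does to them beforehand, and the members are those whose resting level was set to the same height in fed and starved wild-type plants by the rule.

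NLP2 checked the labels. Its level was 22.2 to 27.3 CPM in untreated, 59.0 to 66.4 in starved and 37.7 to 49.4 in nitrate-treated wild type, against 3.301 to 9.388, 9.77 to 16.6 and 8.34 to 17.9 in nlp2, with no overlap in any condition. Tissue markers were those of a whole seedling, with all 7 leaf and all 8 root markers detected and the summed level of 4 seed storage genes at no more than 6.51 CPM. The leaf markers summed to 24038 to 29350 CPM in untreated, 13310 to 16059 in starved and 10650 to 11963 in nitrate-treated nlp2, and the root markers to 3527 to 3972, 3975 to 4484 and 3356 to 4124. With starvation in nlp2, all 7 leaf markers fell (edgeR). Their part in the results was not tested, and in whole seedlings fewer cells of a type and less RNA per cell cannot be told apart.

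The 250 bases before the annotated start are shown for 4 members, chosen because they stand for nitrate reduction (NIA1 and NIA2), reducing power (G6PD2) and jasmonate synthesis (AOC3). They are from the RefSeq TAIR10.1 assembly, written 5′ to 3′ on the strand of the gene. Capitals mark matches on either strand to 5 short motifs. The W box was searched as TTGACC and also as TTGACT. The G box was searched as CACGTG. The CGCG box was searched as ACGCGT and also as CCGCGT. The core bound by GARP factors was searched as GAATC, and a further motif as CTCTTT.
NIA1 (chr1:29239485-29239734, reverse strand): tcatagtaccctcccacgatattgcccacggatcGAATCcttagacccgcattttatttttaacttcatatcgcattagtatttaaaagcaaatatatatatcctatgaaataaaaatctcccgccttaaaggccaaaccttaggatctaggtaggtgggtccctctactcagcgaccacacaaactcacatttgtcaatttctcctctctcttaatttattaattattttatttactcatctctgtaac
NIA2 (chr1:14158202-14158451, forward strand): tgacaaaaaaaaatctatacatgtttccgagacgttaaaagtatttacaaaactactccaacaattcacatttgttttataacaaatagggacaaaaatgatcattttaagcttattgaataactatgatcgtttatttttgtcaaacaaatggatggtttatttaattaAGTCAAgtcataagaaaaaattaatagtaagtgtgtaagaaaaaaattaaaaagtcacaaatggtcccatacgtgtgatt
G6PD2 (chr5:4158389-4158638, forward strand): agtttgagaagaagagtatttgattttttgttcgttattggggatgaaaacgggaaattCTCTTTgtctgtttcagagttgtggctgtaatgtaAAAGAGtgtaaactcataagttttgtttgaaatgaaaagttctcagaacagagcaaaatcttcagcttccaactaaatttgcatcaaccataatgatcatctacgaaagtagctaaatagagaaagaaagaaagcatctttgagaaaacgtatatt
AOC3 (chr3:9408910-9409159, forward strand): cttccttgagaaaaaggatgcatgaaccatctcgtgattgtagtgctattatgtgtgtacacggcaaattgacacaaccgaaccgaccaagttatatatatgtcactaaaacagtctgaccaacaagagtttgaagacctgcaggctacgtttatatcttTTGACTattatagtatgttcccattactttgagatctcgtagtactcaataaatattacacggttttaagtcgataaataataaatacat

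The shares of windows with these letters were near those of all genes for the W box and lower or higher by several percentage points for the others. A W box, the site bound by WRKY factors, lay in 28.0% of the 82 windows and in 28.5% of those of 20588 tested genes. GAATC was found in 32.9% against 38.9%, CTCTTT in 30.5% against 26.7%, a G box in 3.66% against 7.23% and a CGCG box in 6.10% against 3.61%. No member window held the GCC box (GCCGCC), which 1.88% of all windows held. None held GACNCTT followed at a distance of 10 bases by the triplet AAG, a simplified form of the nitrate-responsive element that NIN-like proteins bind, which 0.126% of all windows held. A match is a string of letters and not a shown binding site, and a window without one says nothing of a factor bound elsewhere. The gene models of the members had a median length of 1441.5 bases, against 1490 over all genes tested, and 24.4% had a single exon, against 17.38%. They were spread over the 5 chromosomes, with 24, 13, 13, 8 and 24 genes on chromosomes 1 to 5. Only AOC2 with AOC3, 1088 bases apart, and LAC8 with AT5G01050, 1849 bases apart, were direct neighbours.

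**Figure D1:**
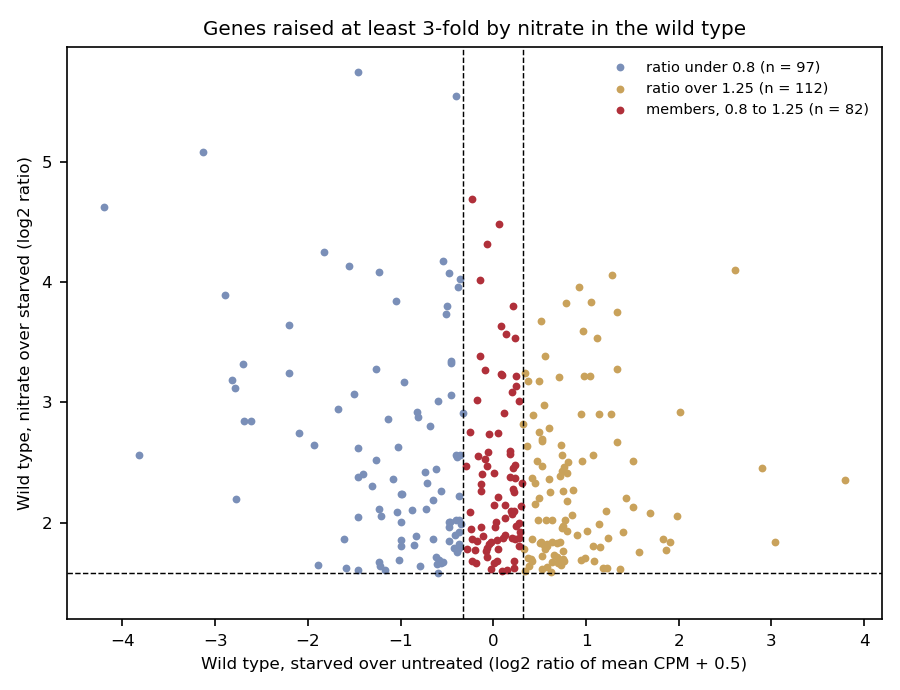
Each point is 1 of the 291 genes with a wild-type mean of at least 5 and a ratio of nitrate to starved of at least 3; x is the log2 ratio of starved to untreated and y the log2 ratio of nitrate to starved, both from mean CPM + 0.5, and the dashed lines are the limits of the rule. The 82 members fill the strip between 0.8 and its reciprocal, with the lowered genes to the left and the raised genes to the right.

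In the wild type, the ratio of nitrate to starved ran from 3.03 (AT5G58900) to 25.8 (AT5G52050), with a median of 4.43; 35 members reached 5-fold and 9 reached 10-fold. The starved to untreated ratio ran from 0.815 to 1.24, with a median of 1.03. Median levels were 14.2 CPM untreated, 13.8 starved and 67.1 after nitrate. Just inside the nitrate limit stood AT5G58900, CML37 and MDH at 3.03, 3.05 and 3.07, and just outside AT4G18280, AT2G27500 and AT5G52882 at 2.98, 2.96 and 2.95. At the lower starvation limit AT1G64190, WNK7 and HSFA7A stood inside at 0.815, 0.820 and 0.839, while AT3G14260, AT1G11185 and TCH3 fell outside at 0.798, 0.785 and 0.782. At the upper one DREB2A, NIA2 and NUDT7 were inside at 1.24, 1.23 and 1.22, with LTI78, AtIPCS1 and RAS1 outside at 1.252, 1.254 and 1.268. By mean level plus 0.5 CPM, PLP5, AT2G23110 and AT1G51090 were in at 5.03, 5.47 and 5.56, and AT2G17660, DDF1 and AT3G22275 out at 4.59, 4.45 and 3.98.

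In the mutant, which had no part in the choice, 76 of the 82 members rose with nitrate and none fell (edgeR quasi-likelihood test, adjusted p below 0.05 over all 21347 genes tested; 9.36% of all genes rose and 9.23% fell). The median change was 2.11 on the log2 scale, and the estimate was positive for all 82. In 79 members every nitrate-treated nlp2 library stood above every starved one, which held for 10.7% of all genes tested. The ratio of means ran from 1.34 to 21.7 with a median of 3.86, and was at least 3 in 59 members. It was smaller than in the wild type in 69, a count that the choice favours, since the wild-type ratio had to be at least 3. Within replicate numbers 1, 2 and 3, the median log2 ratio was 1.78, 1.94 and 2.21, with 80, 81 and 82 members higher. Not called were PPI2, CML37, PLP5, HSFA7A, AT5G37670 and AT1G66860, whose estimates were 1.54, 1.04, 1.75, 2.66, 1.71 and 0.94 on the log2 scale, with adjusted p of 0.145, 0.0964, 0.0769, 0.0558, 0.290 and 0.613. Below, each member's change is the log2 fold change of nitrate against starvation in nlp2 with its standard error and edgeR adjusted p, unless another comparison is named.

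**Figure D2:**
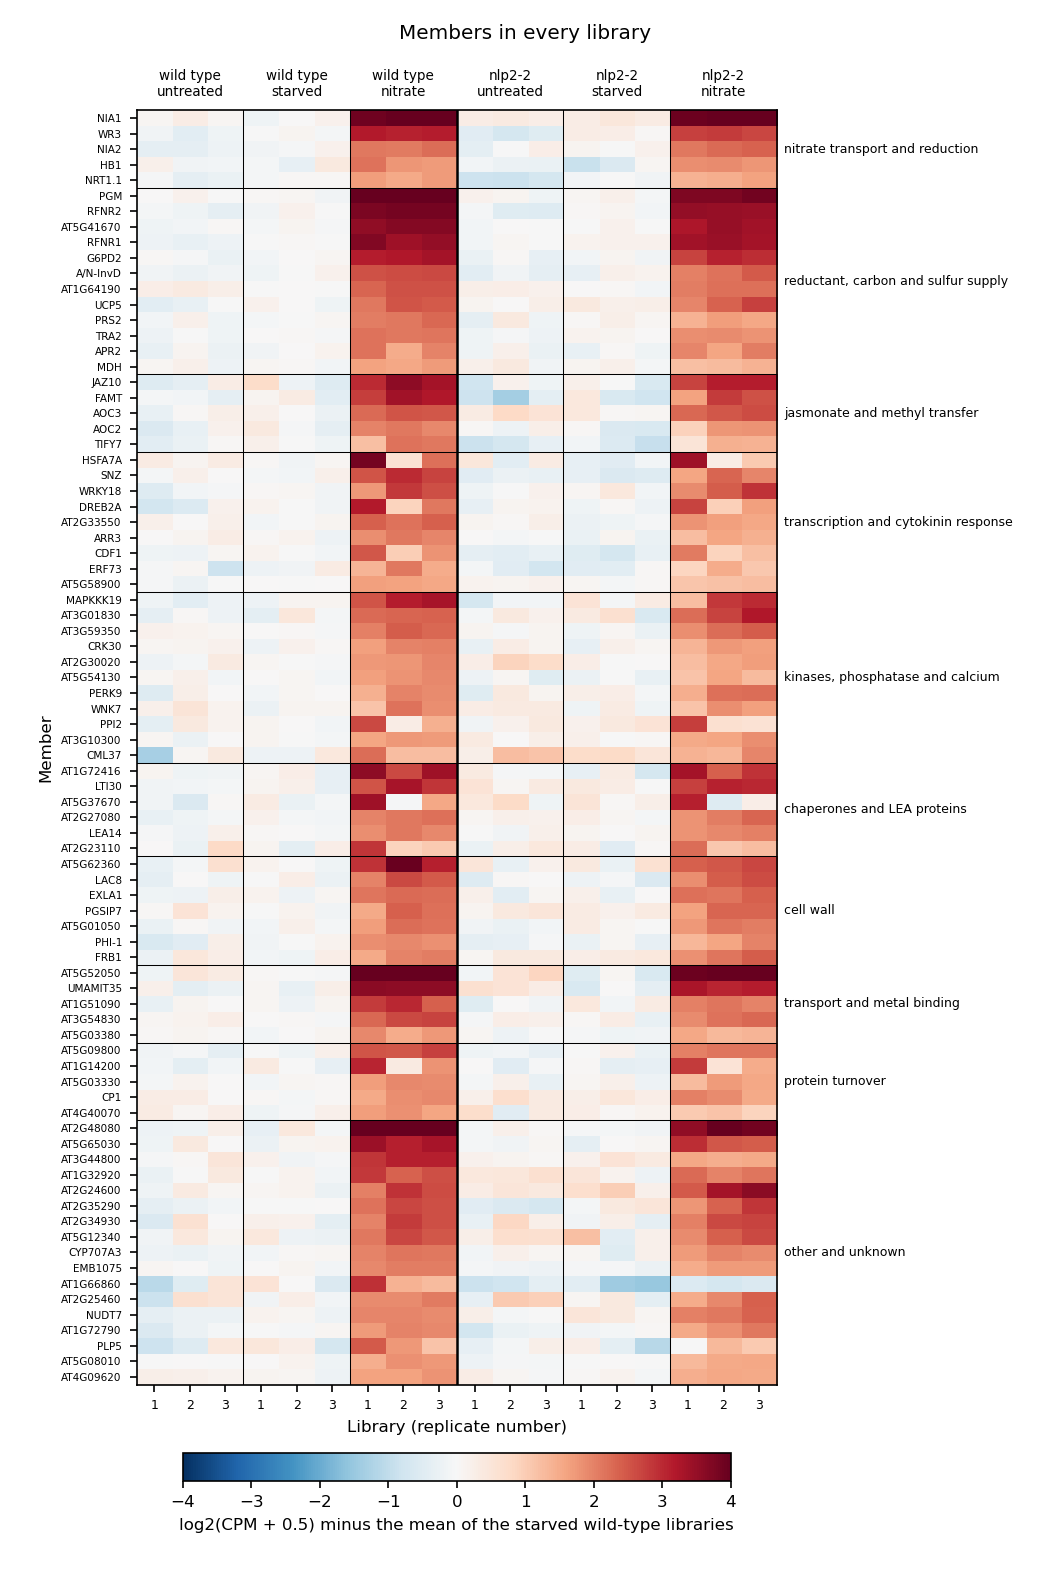
Colour gives log2(CPM + 0.5) of each of the 82 members (lines, grouped by role) in each of the 18 libraries (columns, with their replicate number), minus the mean of the 3 starved wild-type libraries. Both nitrate-treated groups are red almost throughout, and the exceptions include AT1G66860 in nlp2 and the members that are high in replicate 1 and low in replicate 2.

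Of the genes for nitrate transport and reduction, NIA1, NIA2, NRT1.1, NRT3.1 (WR3 in RefSeq) and HB1 were members, and all 5 rose. NIA1 and NIA2 encode nitrate reductase, which turns nitrate into nitrite. For NIA1 (chr1:29235721-29239484, reverse strand), the wild type gave 112, 131 and 111 CPM untreated, 93.6, 107 and 119 starved and 1584, 1799.5 and 1789 after nitrate, while nlp2 gave 130.2, 136 and 128 untreated, 131, 144 and 134 starved and 1602, 2019 and 1892 after nitrate. Each nitrate-treated library stood far above all others, and the 2 genotypes overlapped there. All starved nlp2 libraries stood above all starved wild-type ones, a difference of 0.33 ± 0.09 that was not called (SE, edgeR adjusted p = 0.263). The change in nlp2 was 3.83 ± 0.10 (SE, adjusted p = 8.09e-15). For NIA2, the wild type gave 583, 587 and 656 CPM untreated, 684, 728 and 842 starved and 3261, 3167 and 3530.4 after nitrate, while nlp2 gave 566, 739 and 899.7 untreated, 814, 743 and 844 starved and 3228, 3571 and 3823 after nitrate. Its change was 2.22 ± 0.14 (SE, adjusted p = 1.75e-09), and for NIA2 the genotypes overlapped in each condition. Neither nitrate reductase was called different between genotypes after nitrate, with log2 differences of 0.02 ± 0.09 (SE, adjusted p = 1) and 0.02 ± 0.14 (SE, adjusted p = 1).

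NRT1.1 encodes a nitrate transporter that also senses nitrate, and NRT3.1 a partner protein that high-affinity nitrate transporters need. For NRT1.1, the wild type gave 283, 229 and 242 CPM untreated, 278, 302 and 301 starved and 935, 842 and 950.5 after nitrate, while nlp2 gave 166, 160.0 and 179 untreated, 271, 289 and 269 starved and 776, 805 and 904 after nitrate. Untreated nlp2 lay below every untreated wild-type library, starved libraries of the genotypes overlapped, and all nitrate-treated ones were higher. It was the only member that differed between untreated genotypes, at -0.62 ± 0.11 (SE, adjusted p = 0.0087); 0.361% of all genes did, 0.089% being lower in nlp2. The untreated wild-type libraries also chose the members, so this comparison is not independent of the rule. This difference was not called without wild-type replicate 1 (adjusted p = 0.0784), without nlp2 replicate 2 (0.0525) or with only the untreated libraries in the model (0.299). With nitrate, NRT1.1 rose in nlp2 by 1.67 ± 0.11 (SE, adjusted p = 2.12e-09). For NRT3.1, nlp2 gave 51.7, 42.5 and 50.2 CPM untreated, 85.4, 83.5 and 72.2 CPM starved and 474, 491 and 448 after nitrate, and its change was 2.63 ± 0.12 (SE, adjusted p = 1.27e-11). HB1, a hemoglobin that scavenges nitric oxide, stood at 13.1, 16.6 and 26.4 CPM starved and 91.5, 94.0 and 86.3 after nitrate in nlp2, with a change of 2.37 ± 0.24 (SE, adjusted p = 1.96e-06). Of the 22 listed genes of nitrate transport and assimilation, 14 rose and 3 fell with nitrate in nlp2; besides the 4 members among them, 4 are among the genes lowered by starvation and 3 among those raised by it. None of the 29 listed regulators of the primary nitrate response was a member, 10 were in the lowered set, and 21 rose and 4 fell in nlp2. Over all genes tested, 9.36% rose and 9.23% fell.

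**Figure D3:**
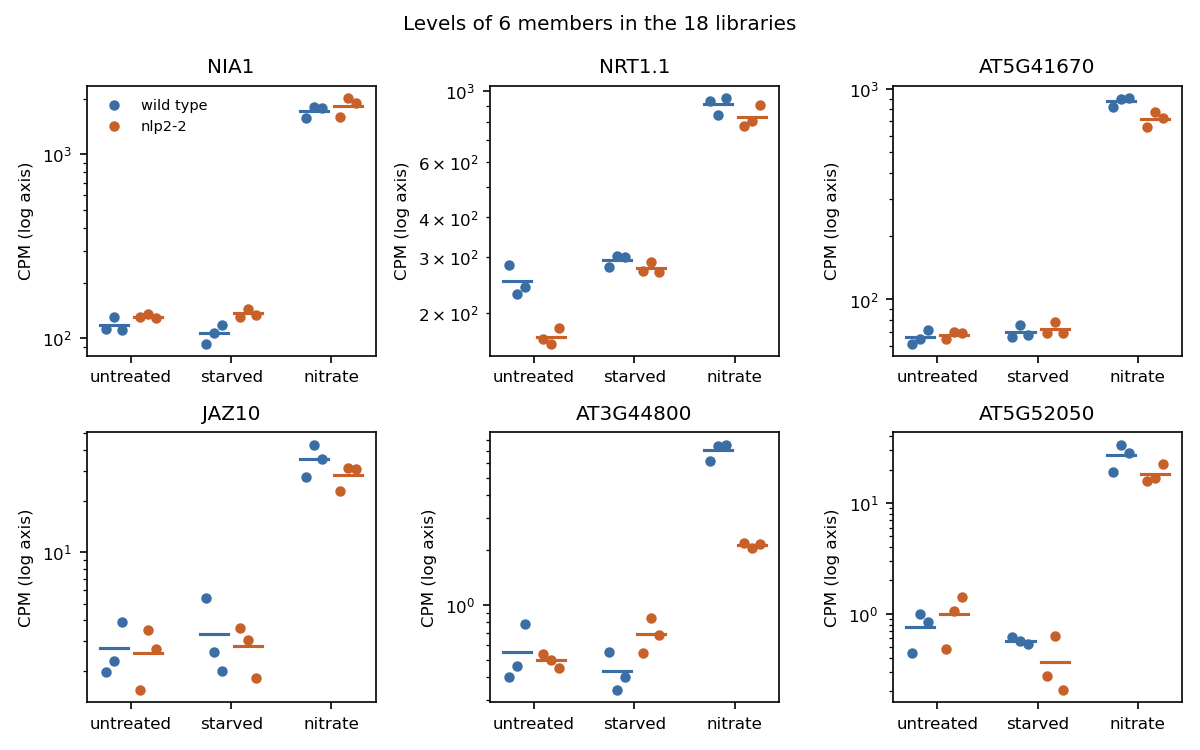
Levels of 6 members in CPM on a log axis, with 1 point for each library in order of replicate number and a bar for the mean of 3 libraries, for wild type (blue) and nlp2-2 (orange). All 6 were higher after nitrate than untreated or starved in both genotypes. NRT1.1 was lower in untreated nlp2, and AT3G44800 reached only 2.06 to 2.19 CPM in nitrate-treated nlp2 against 6.19 to 7.57 in the wild type.

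Reducing power for nitrite reduction outside green tissue comes from the oxidative pentose phosphate pathway through root-type ferredoxin-NADP reductases. All 12 members with roles in reductant, carbon and sulfur supply rose with nitrate in nlp2, by 1.29 (MDH) to 3.86 (PGM). RFNR1 and RFNR2 encode root-type ferredoxin-NADP reductases; in nlp2, RFNR2 gave 72.7, 75.6 and 65.0 CPM starved and 799, 779.9 and 771 after nitrate, a change of 3.55 ± 0.13 (SE, adjusted p = 5.61e-13). RFNR1 gave 59.1, 60.2 and 59.8 CPM starved and 558, 594 and 537 after nitrate, a change of 3.32 ± 0.10 (SE, adjusted p = 7.14e-14). For the oxidative pentose phosphate pathway itself, G6PD2, the enzyme of its first step, changed by 3.05 ± 0.11 (SE, adjusted p = 2.69e-13). The 6-phosphogluconate dehydrogenases AT5G41670 (PGD3) and AT1G64190 (PGD1), which make further NADPH, changed by 3.40 ± 0.08 (SE, adjusted p = 1.60e-15) and 2.26 ± 0.07 (SE, adjusted p = 1.51e-13), and TRA2, a transaldolase of the sugar-rearranging part, by 1.85 ± 0.08 (SE, adjusted p = 9.03e-12). Their nlp2 libraries did not overlap between starvation and nitrate: AT5G41670 stood at 69.2, 77.8 and 69.7 CPM starved and 657, 778 and 724 after nitrate.

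PGM, annotated as a phosphoglycerate/bisphosphoglycerate mutase, had the largest change of these, 3.86 ± 0.12 (SE, adjusted p = 4.20e-14), with 8.73, 9.65 and 7.83 CPM starved and 115, 117 and 126 after nitrate. PRS2 makes phosphoribosyl pyrophosphate, a precursor of nucleotides, and stood at 15.5, 17.72 and 15.7 CPM starved and 39.9, 48.5 and 44.5 after nitrate. APR2, the enzyme that reduces activated sulfate, stood at 161, 205 and 176 CPM starved and 773, 590.3 and 831 after nitrate, a change of 2.11 ± 0.19 (SE, adjusted p = 2.14e-07). MDH is a malate dehydrogenase and UCP5 a mitochondrial carrier of dicarboxylates; both rose. Of the 14 genes listed for reductant and carbon supply, 8 rose and 1 fell in nlp2, with 5 of the 14 being members. All 5 listed genes of sulfate assimilation rose, where 9.36% of all genes rose and 9.23% fell.

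Jasmonate synthesis and its JAZ repressors gave 4 members, which all rose, as did FAMT, grouped with them as a methyltransferase. AOC2 and AOC3 encode allene oxide cyclases, and JAZ10 and JAZ9 (TIFY7 in RefSeq) encode JAZ proteins, which repress jasmonate responses. For JAZ10, the wild type gave 1.99, 2.31 and 3.88 CPM untreated, 5.39, 2.602 and 2.00 starved and 27.5, 42.6 and 35.3 after nitrate, while nlp2 gave 1.55, 3.499 and 2.69 untreated, 3.601, 3.06 and 1.84 starved and 22.9, 31.3 and 30.8 after nitrate. Its starved libraries spread over more than those of the reductases, and every nitrate-treated library stood above them; the change in nlp2 was 3.38 ± 0.31 (SE, adjusted p = 5.94e-07). AOC3 stood at 32.1, 24.7 and 25.1 CPM starved and 119, 134 and 149 after nitrate, a change of 2.37 ± 0.15 (SE, adjusted p = 1.06e-09), and AOC2 changed by 2.00 ± 0.26 (SE, adjusted p = 3.75e-05). AOC2 and AOC3 are neighbouring genes of 1 family, and reads with equally good hits elsewhere were removed before counting; how many reads either gene lost was not tested. JAZ9 and FAMT, a methyltransferase of farnesoic acid, were lower in replicate 1 than in 2 and 3 after nitrate in both genotypes: 126, 245 and 234 CPM in the wild type and 78.2, 147 and 142 in nlp2 for JAZ9, and 14.95, 22.9 and 20.5 CPM in the wild type and 6.51, 15.5 and 13.0 in nlp2 for FAMT. Of 23 listed genes of JAZ repressors and jasmonate metabolism, 21 rose and 1 fell in nlp2, where 9.36% of all genes rose and 9.23% fell. Of these 23, 4 were members, and 9 others belonged to the genes that starvation raised.

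Among 9 transcription and cytokinin-response genes, 8 rose in nlp2. WRKY18, a WRKY factor of defence, stood at 19.1, 24.3 and 16.7 CPM starved and 68.5, 98.1 and 138 after nitrate, a change of 2.42 ± 0.24 (SE, adjusted p = 2.02e-06). SNZ, an AP2-type repressor of flowering, changed by 2.63 ± 0.16 (SE, adjusted p = 1.15e-09). ERF73, an ethylene response factor known from low oxygen, stood at 14.5, 14.7 and 20.4 CPM starved and 36.8, 57.1 and 42.2 after nitrate. ARR3, a type-A response regulator that dampens cytokinin signalling, stood at 5.35, 7.07 and 5.31 CPM starved and 15.9, 20.2 and 18.4 after nitrate. Of the lists of other factor families, 7 of 18 WRKY genes rose and 1 fell, and 9 of the 18 tested ERF and DREB genes rose and 2 fell. Of 10 cytokinin genes, 2 rose and 1 fell. These lists do not hold the members DREB2A, ERF73 and ARR3. Of 16 listed genes of touch and calcium signalling, 8 rose and 3 fell. Among 8 C2H2 zinc finger genes 2 rose and 1 fell, among 8 auxin response genes 1 rose and 0 fell, and among 11 circadian clock genes 2 rose and 3 fell. Over all genes tested, 9.36% rose and 9.23% fell.

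Membrane transporters held the member with the largest wild-type ratio. AT5G52050 (chr5:21138703-21140876, forward strand), annotated as a MATE-family efflux protein, stood at no more than 1.43 CPM in the untreated and starved libraries of both genotypes. The wild type gave 0.443, 0.988 and 0.835 CPM untreated, 0.612, 0.566 and 0.534 starved and 19.1, 33.7 and 28.6 after nitrate, while nlp2 gave 0.485, 1.06 and 1.43 untreated, 0.273, 0.633 and 0.204 starved and 15.8, 16.9 and 22.4 after nitrate, with no overlap between nitrate and the other conditions. Its change was 5.64 ± 0.34 (SE, adjusted p = 7.99e-10). UMAMIT35, of a family of amino acid exporters, stood at 0.273, 0.686 and 0.409 CPM starved and 10.8, 9.21 and 9.85 after nitrate, a change of 4.50 ± 0.26 (SE, adjusted p = 4.97e-10). The members whose log2 CPM over the 9 nlp2 libraries was most like that of AT5G52050 were AT3G54830, AT1G64190 and LAC8, with Pearson r of 0.988, 0.986 and 0.985, as a description over libraries that share the 3 conditions. AT3G54830 is annotated as an amino acid transporter and LAC8 is a laccase, an enzyme that oxidises phenols in the cell wall; they stood at 19.8, 24.1 and 15.5 CPM starved and 72.3, 88.3 and 97.1 after nitrate, and at 34.7, 38.3 and 26.8 CPM starved and 146, 218 and 249 after nitrate. All 7 cell wall members rose, by 1.94 to 2.82. Of 17 members with other or unknown roles 15 rose, the largest being AT2G48080, an oxygenase of the 2-oxoglutarate and iron type, at 3.76, 3.64 and 3.54 CPM starved and 50.7, 69.8 and 63.2 after nitrate, a change of 4.15 ± 0.17 (SE, adjusted p = 2.23e-12).

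On the CPM scale of the rule, most members stayed within the same starvation limits in nlp2. The starved to untreated ratio was within the limits of the rule for 63 of the 82 members, below it for 11 and above it for 8, against 53.6% of all genes tested within it. By edgeR, 3 members rose and 9 fell with starvation, where 14.5% of all genes rose and 15.7% fell, 30.2% in all; with replicate number as a block, 3 members rose and 15 fell, where 19.05% of all genes rose and 19.1% fell. The rises were 0.52 ± 0.11 (SE, adjusted p = 9.68e-04) for NRT1.1, 0.54 ± 0.11 (SE, adjusted p = 0.0014) for NRT3.1 and 1.09 ± 0.33 (SE, adjusted p = 0.018) for AT2G35290, a protein of unknown function. The falls included AT1G64190 at -0.45 ± 0.07 (SE, adjusted p = 1.08e-04), AT2G30020, a protein phosphatase 2C, at -0.76 ± 0.16 (SE, adjusted p = 9.82e-04), UMAMIT35 at -1.51 ± 0.33 (SE, adjusted p = 0.0017), AT2G33550 at -0.50 ± 0.12 (SE, adjusted p = 0.0044) and AOC3 at -0.56 ± 0.14 (SE, adjusted p = 0.0056). AT5G52050 fell by 1.58 (SE 0.46, adjusted p = 0.0145), and AT5G58900, AT3G59350 and AT1G32920 fell by 0.32, 0.38 and 0.55. The changes of AT5G52050, UMAMIT35 and AT2G35290 rest on few reads per nlp2 library. Untreated and starved libraries held 10, 19 and 35 against 5, 12 and 3 reads for AT5G52050. UMAMIT35 had 27, 22 and 23 against 5, 13 and 6, and AT2G35290 had 15, 11 and 13 against 20, 32 and 27. The rule scaled libraries by their total count, while edgeR scaled them by TMM, and this moved the median log2 ratio of starved to untreated over all genes from 0.20 to 0.02 in nlp2 and that of the members from -0.04 to -0.21. With library-size scaling the calls were 5 higher and 5 lower instead of 3 and 9, where 30.4% of all genes rose and 9.54% fell. The direction of this small group thus depends on the scale, which also moved the calls over all genes. The scale moved the members as a whole too. With TMM, 66 of the 82 estimates were negative (median -0.25), against 10089 of all 21347 genes (median 0.02). With library-size scaling 43 were negative (median -0.05, against 0.22 over all genes). In the wild type, TMM moved the median log2 ratio of starved to untreated from 0.05 to -0.13 over the members and from 0.21 to 0.02 over all genes. The starvation response of no member was called different between genotypes (edgeR, 0% of all genes; 4 members and 395 of all 21347 genes at an unadjusted p below 0.05, and 0 members by DESeq2).

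Applied to nlp2, the same rule gave 70 genes, of which 43 were members, 52.4% of the members and 61.4% of the 70. The nitrate-treated level of nlp2 was also above the untreated level, in 76 members by edgeR (19.6% of all genes), with a median log2 change of 1.90; only AT1G66860 had a negative estimate. For comparison, of the 97 genes that starvation lowered in the wild type, 88 fell with starvation in nlp2, and the median change from untreated to nitrate was 1.04; of the 112 raised ones 27 rose with starvation, and that median was 2.54. These counts describe the sets and were not tested against each other.

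After nitrate, the members tended to stand lower in nlp2 than in the wild type. By edgeR, 15 of 82 were lower and none higher, where 0.422% of all genes were lower and 0.365% higher. The median log2 difference was -0.38 and the estimate was negative for 75 members, against -0.01 and 11586 of all 21347 genes tested. The wild-type libraries of this comparison also chose the members by their height after nitrate, so this count is not independent of the rule. With replicate number as a block, since dated libraries of 1 number share a planting, 24 were lower. Calls over all genes rose with it, to 0.998% lower and 0.689% higher. Wild-type nitrate replicates 1 and 2 carry no date. Within replicate numbers 1, 2 and 3, 68, 65 and 54 members were lower in nlp2. The median log2 ratios were -0.32, -0.25 and -0.31 over the members and 0.07, 0.05 and 0.04 over all genes tested. Every wild-type library stood above every nlp2 library in 30 members (3.85% of all genes), and the reverse held in 1 (9.20%). The lowered set had 15 of 97 genes lower in nlp2 after nitrate and the raised set 9 of 112, so a lower count is not shown to be particular to the members.

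AT3G44800, annotated with a MATH (meprin and TRAF homology) domain, had the smallest p, with 6.19, 7.41 and 7.57 CPM in the wild type and 2.19, 2.06 and 2.17 in nlp2 after nitrate and 0.339 to 0.844 CPM in all starved libraries. It passed the level step of the rule only through these wild-type nitrate libraries, a choice that favours a negative difference. All 3 wild-type libraries lay above all of nlp2, and the difference was -1.79 ± 0.19 (SE, adjusted p = 2.96e-05). AT2G33550, a homeodomain-like protein, stood at 97.7, 82.9 and 98.1 CPM in the wild type and 64.2, 57.1 and 54.5 in nlp2, a difference of -0.74 ± 0.11 (SE, adjusted p = 0.0023). PGM stood at 177, 159.7 and 187 CPM in the wild type and 115, 117 and 126 in nlp2, a difference of -0.62 ± 0.10 (SE, adjusted p = 0.0035). For SNZ the values were 46.8, 65.4 and 54.1 CPM in the wild type and 24.3, 41.5 and 31.5 in nlp2, a difference of -0.84 ± 0.14 (SE, adjusted p = 0.0046). AT2G48080 differed by -0.78 ± 0.13 (SE, adjusted p = 0.0052) and PRS2 by -0.69 ± 0.12 (SE, adjusted p = 0.0078). Of the 15, AT3G44800, AT2G33550, PGM and AT2G48080 were called in all 11 alternatives tried, while AT5G41670 was called in 2 of them and AT5G09800, TRA2 and AT5G54130 in 4. Besides these 4, SNZ and PRS2, the 15 held ARR3, AT5G58900, AT1G64190, EMB1075, AT5G09800, AT5G54130, TRA2, AT5G41670 and AT1G66860. AT1G66860, a class I glutamine amidotransferase-like protein, had 11.9, 3.75 and 3.40 CPM in the wild type and 0.609, 0.504 and 0.586 in nlp2, where the nlp2 values rest on 10, 11 and 10 reads and wild-type replicate 1 stands apart. This gene, too, passed the level step only through the wild-type nitrate libraries, as did AT2G48080 and AT5G09800. For AT2G48080 the wild-type means were 3.82 CPM untreated and 4.01 starved, against 100.4 after nitrate. The choice favours a negative difference for these genes as well, also where all alternatives gave the call.

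**Figure D4:**
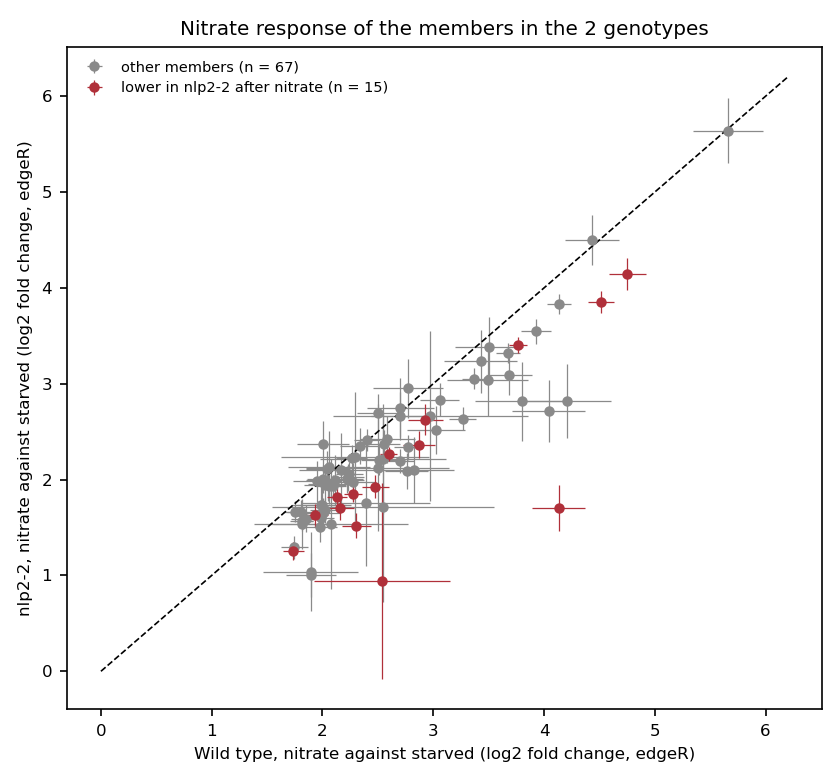
Each point is 1 member, with the log2 fold change of nitrate against starvation in the wild type (x) and in nlp2-2 (y) and bars of 1 standard error, from edgeR; the dashed line is equality, and red marks the 15 members lower in nlp2 after nitrate. Most points lie a little below the line, which the choice of members on high wild-type ratios favours, with AT3G44800 furthest among those with small errors, at 4.13 in the wild type and 1.70 in nlp2.

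The size of the nitrate response itself was compared between genotypes with an interaction term, which used the same wild-type libraries. No member was called, as for all genes (edgeR, 0%); DESeq2 called 1, AT3G44800. At an unadjusted p below 0.05 there were 26 of 82 members and 313 of all 21347 genes. The median difference in response was -0.31 on the log2 scale, and the estimate was negative in 72, against -0.01 and 11758 of all genes tested. For AT3G44800 the difference was -2.43 ± 0.36 (SE, adjusted p = 0.061) by edgeR and -2.44 with an adjusted p of 0.00798 by DESeq2; over all alternatives its adjusted p ran from 0.00798 to 0.779. In starved seedlings no member was called different between genotypes (edgeR, against 0.365% of all genes; 5 members and 1239 of all 21347 genes at an unadjusted p below 0.05, and 0 members by DESeq2).

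Some members varied widely between replicate numbers after nitrate. After nitrate, 6 members were highest in replicate 1 and lowest in replicate 2 in both genotypes, by at least 2-fold between these 2, which held for 7.32% of the members and 0.637% of all genes tested. They were HSFA7A, a heat shock transcription factor, AT5G37670, a small heat shock protein of the HSP20 type, DREB2A, a factor of heat and drought responses, AT1G14200, a RING-type protein, CDF1, a DOF factor of flowering time, and AT2G23110, a late embryogenesis abundant protein. This pattern was chosen after the values were seen. HSFA7A stood at 192, 19.7 and 62.2 CPM in the wild type and 143, 16.3 and 27.7 in nlp2 after nitrate and between 9.39 and 13.9 CPM in all 6 starved libraries. AT5G37670 stood at 54.6, 4.48 and 14.8 CPM in the wild type and 44.6, 3.16 and 5.68 in nlp2, with starved libraries from 3.85 to 6.93, so that in replicate 2 of nlp2 it was lower after nitrate than starved. DREB2A gave 88.5, 17.9 and 42.9 CPM in the wild type and 64.6, 18.8 and 30.5 in nlp2. Over the 6, the median log2 ratio of nitrate to starved was 2.87, 0.81 and 2.02 in wild-type replicates 1, 2 and 3 and 2.67, 0.92 and 1.36 in nlp2. The other 76 members gave 2.06, 2.17 and 2.28, and 1.70, 1.97 and 2.30.

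A list of 8 heat shock genes, none of them a member, moved with the same libraries. Their summed level was 18595, 1476 and 5078 CPM in nitrate-treated wild type and 15337, 1492 and 2587 in nitrate-treated nlp2, against 775 to 2165 in all starved libraries. In 6 of the 8, replicate 1 was highest and replicate 2 lowest in both genotypes. By edgeR, 1 of the 8 rose with nitrate in nlp2 and 0 fell, where 9.36% of all genes rose and 9.23% fell. What part the planting, or whatever raised this list, has in the members' values was not tested. Without the 6 members, 72 of the other 76 rose in nlp2, 12 changed with starvation and 15 were lower in nlp2 than in the wild type after nitrate. Without wild-type nitrate replicate 1, 9 members no longer met the rule, among them AT1G14200, AT2G23110, AT5G37670, CDF1 and PPI2. PPI2, an interactor of the plasma membrane proton pump, gave 22.5, 3.996 and 9.22 CPM in the wild type and 24.4, 5.13 and 4.98 in nlp2 after nitrate and was not called in nlp2, where only replicate 1 stood apart. At the other end, 44 members were lowest in replicate 1 after nitrate in both genotypes, 53.7% of them against 40.1% of all genes tested.

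**Figure D5:**
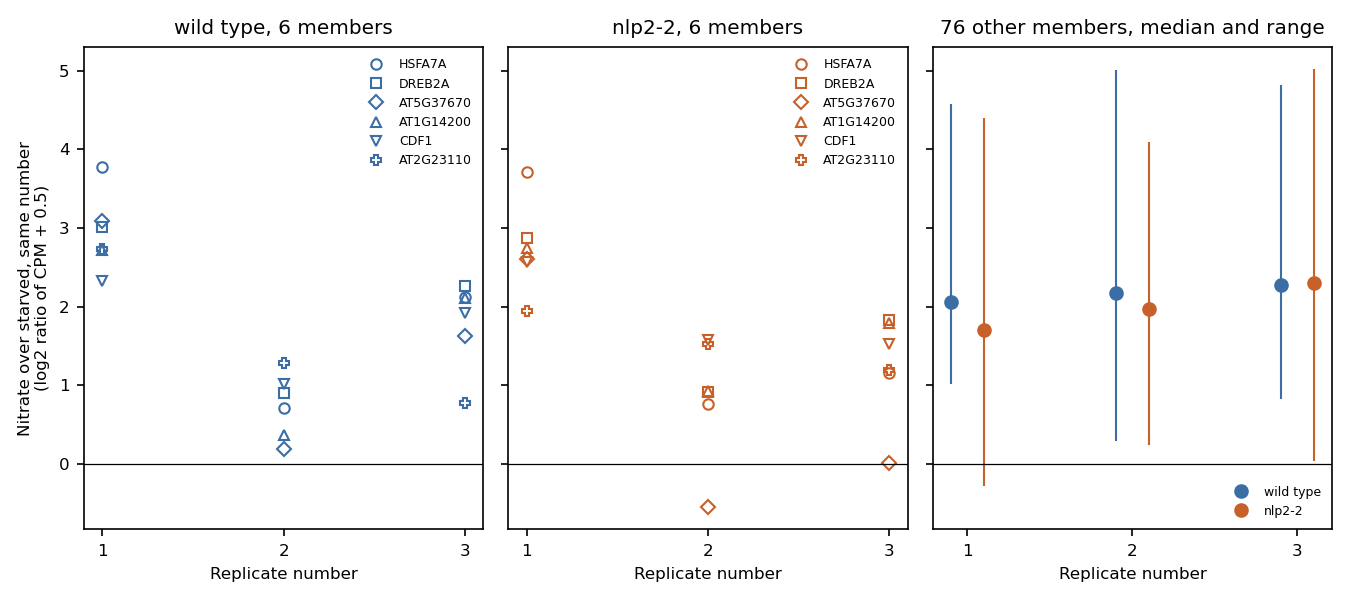
Log2 ratio of nitrate to starved within each replicate number, for the 6 members that are highest in replicate 1 and lowest in replicate 2 after nitrate in wild type (left) and nlp2-2 (middle), and for the other 76 members as median (point) and range (line) by genotype (right). The 6 fall from 2.33 to 3.78 in wild-type replicate 1 to between 0.20 and 1.29 in replicate 2, while the medians of the other 76 stay between 1.70 and 2.30.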

How the data were processed

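Transcripts of 18 whole-seedling libraries were analysed from raw counts, whole numbers that the authors deposited for each gene model. Reads with equally good hits elsewhere were removed and counts made with sam2pkm, per the file headers; Bowtie2 and TAIR10 are named in the submitters' processing notes, their versions and whether counting used strand are not stated there. CPM was computed on total counts, and members were chosen on wild-type CPM + 0.5.

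edgeR 4.0.16 in R 4.3.3 (filterByExpr with a minimum count of 10, which kept 21347 genes, TMM factors 0.902 to 1.14, robust quasi-likelihood F-test, 6 group means, 12 residual degrees of freedom) gave Benjamini-Hochberg adjusted p-values, called below 0.05; the common biological coefficient of variation was 12.9%. DESeq2 1.42.0, library-size scaling, no filter, the replicate block, fewer groups and each library left out were alternatives. The members and lists were chosen with earlier results of these data known, and roles were assigned after values were seen. Named genes follow a rule on size, level, list and p; other names were chosen after their values were seen. Of 192 listed genes, 176 carried the listed symbol or synonym in RefSeq and 16 were members. Promoters were read from the RefSeq TAIR10.1 genome. Labelled planting dates tie same-numbered libraries, apart from 5 undated wild-type ones; residuals of the 45 same-numbered pairs correlated at -0.11 to 0.62 (median 0.24). Totals of counts in the headers equalled the sums in 18 of 18 libraries, and no replicate pair differed by as little as sampling noise.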

Additional observations from a re-analysis of the deposited data

How the results depend on the processing

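The number of members was 149 with a starved to untreated ratio from 0.67 to 1.5, 222 with a nitrate to starved ratio of at least 2, 107 with TMM scaling (66 of them members, 80.5% of the 82) and 80 with the level threshold applied before adding 0.5; without single wild-type libraries it was 80 to 96. The 76 members that rose in nlp2 became 73 to 78 over the alternatives of test, scaling, filter and libraries, and the 12 called with starvation 10 to 18. The count lower in nlp2 after nitrate was 15, and it was 7 with library-size scaling, 8 with only these groups, 24 with the replicate block, and 8 to 13 without single libraries (8 without wild-type replicate 3 or nlp2 replicate 2). It was 21 by DESeq2 and 13 without the filter. A member higher in nlp2 was called only without nlp2 replicate 1, where there was 1 such member and 0.664% of all genes were higher. Of all genes, 0.422% were lower in the main fit, 0.220% with library-size scaling, 0.301% with only these groups and 0.998% with the replicate block. By DESeq2 the share was 0.839%, and without the filter 0.281%. For untreated seedlings the count of members called was 1, and 0 with only the groups compared, 0 to 2 without single libraries and 3 with members chosen on TMM-scaled CPM, where the count in starved seedlings was 1 in place of 0. The choice of TMM-scaled members, the earlier level threshold, the test of starvation response between genotypes and the omission of 6 members were added after seeing the data. DESeq2 called 1 member for the nitrate response between genotypes, where edgeR called 0. The replicate block gave 15 members lower with starvation in place of 9, with 3 higher in both fits, and left 77 higher with nitrate. Over 451 fits of single named members in nlp2, 432 gave the same call, 9 lost it, 9 gained it and 1 turned in sign; AT5G37670 ranged from -0.36 to 2.24 without single libraries, with -0.36 (adjusted p = 0.861) without nitrate-treated nlp2 replicate 1. Members at 10 reads per library, such as AT1G66860 in nlp2, are limited by depth.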
